A study of Homo sapiens with 6 samples.

Results

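Heat shock chaperones of the cytosol and the mitochondrion were followed by symbol through a table of 60780 genes. The 10 genes were HSPA1A, HSPA1B, HSPA8, HSPH1, DNAJB1, HSP90AA1, HSP90AB1, HSPB1, HSPD1 and HSPE1. Each had 1 row with an Ensembl identifier, and all 10 were among the 16707 genes with enough counts to be tested.

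Heat shock chaperones bind unfolded proteins and help them to fold, and cells make more of several of them when proteins misfold, as in heat. In the cytosol an HSP70 takes up a client with the help of a J-domain protein such as DNAJB1, releases it with the help of an exchange factor such as HSPH1, and can hand it on to HSP90. In the mitochondrial matrix the HSPD1 barrel closes with a lid of HSPE1, and the inducible genes are switched on by heat shock factor 1 (HSF1) through short inverted repeats in their promoters.

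The libraries were made from LX-2, a human line of hepatic stellate cells, to ask how stellate cells respond to the secreted products of tumor cells that overexpress FGFBP1, a secreted protein that binds fibroblast growth factors. For 24 hours the LX-2 cells, for which the labels name no genetic change, were grown in conditioned medium of HCT116, a human colorectal carcinoma line. The HCT116 cells carried either a lentiviral vector (Vector-CM, n = 3) or the same vector with FGFBP1 (FGFBP1-CM, n = 3), and no group in unconditioned medium was analysed here. The labels do not say whether the libraries of a group came from separate cultures, so p-values measure the spread between these libraries, which may be technical.

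Totals ranged from 14003780 to 18508113 counts per library. FGFBP1 was altered in the cells that conditioned the medium, so its level in LX-2 cells does not check the labels. Of 13 stellate cell markers 12 were detected and LRAT was at 0. Their summed level was 4705 to 5015 CPM (the count scaled to library size) in Vector-CM and 3380 to 4269 CPM in FGFBP1-CM, and the log2 fold change was below 0 for all 10 that were tested, of which 1 fell at an adjusted p of 0.05 in edgeR. Of 20 colorectal epithelial markers 17 were detected and 6 had enough counts to be tested, with CEACAM5, CEACAM6 and TFF3 at 0. Their sum was 226 to 252 CPM in Vector-CM and 216 to 235 CPM in FGFBP1-CM. Most of it came from KRT8, at 145 to 172 CPM over all libraries, and KRT18, at 55.7 to 66.6 CPM, while EPCAM was at 0.223 to 0.809 CPM. All 16 hepatocyte markers were detected, at a sum of 42.7 to 45.9 CPM in Vector-CM and 19.7 to 29.6 CPM in FGFBP1-CM, and 4 of the 7 tested fell at that threshold. The part of these shifts in the results on chaperones was not tested.

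The heat shock element, the DNA motif bound by heat shock factors, is shown first because the factors that switch on inducible chaperone genes act through it. RefSeq sequence (GRCh38.p14) for the 250 bases before each transcription start was searched for 2 neighboring units (GAANNTTC or TTCNNGAA) and for 3 units (GAANNTTCNNGAA or TTCNNGAANNTTC). These motifs cover both strands, and each 3-unit match contains 2-unit matches. Among 27305 genes, 14.0% held a 2-unit match and 0.557% a 3-unit match, while 8 of the 10 chaperone genes, with 16 starts, held the first and 4 held the second. The match nearest to the start follows for each of the 8 genes, or the nearest 3-unit match where there was one, with the matched bases in capitals.
HSPA1A, chr6:31815426-31815455, plus strand: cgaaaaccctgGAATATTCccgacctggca
HSPA1B, chr6:31827622-31827651, plus strand: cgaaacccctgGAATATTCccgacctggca
HSPA8, chr11:123062171-123062200, minus strand: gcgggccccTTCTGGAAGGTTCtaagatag
DNAJB1, chr19:14518426-14518455, minus strand: ggcgggctctgGAAGCTTCcgccggacggg
HSP90AA1, chr14:102087112-102087141, minus strand: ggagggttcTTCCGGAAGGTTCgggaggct
HSP90AB1, chr6:44247822-44247851, plus strand: ctgagattgTTCTGGAAGCTTCtggattct
HSPB1, chr7:76302480-76302509, plus strand: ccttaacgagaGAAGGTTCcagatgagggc
HSPD1, chr2:197500061-197500090, minus strand: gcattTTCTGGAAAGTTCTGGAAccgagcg

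The stretches of HSPA1A and HSPA1B, neighboring genes on chromosome 6 that encode the major inducible HSP70, were the same at 29 of 30 bases. HSPD1 had the longest run, 18 matched bases, in the interval it shares with HSPE1, which is transcribed from the opposite strand. This run lay 294 to 311 bases before the RefSeq start of HSPE1. By the GENCODE 29 coordinates given below, it lies inside the HSPE1 gene. The windows of HSPH1 and HSPE1 held no match to these letters. A match is a description of the sequence and was not tested as a binding site. HSP90AA1 and HSPA8 each held a 3-unit match, and HSPA1A and HSPA1B did not.

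Per length, the constitutive cytosolic forms had the highest levels. On the per-length scale of the deposited FPKM (fragments scaled to gene length and library size), the order in Vector-CM was headed by HSPA8, the constitutive cytosolic HSP70, at 569 ± 29.3 FPKM (SD, n = 3). It was followed by HSP90AB1, the constitutive cytosolic HSP90, at 518 ± 21.4 FPKM and by HSP90AA1, its inducible counterpart, at 273 ± 29.1 FPKM. Levels then dropped to 85.6 ± 3.09 FPKM for HSPD1 and 53.8 ± 1.90 FPKM for HSPA1A. The remaining 5 ran from 41.1 ± 1.36 FPKM for HSPB1 through HSPH1 (34.8 ± 2.71), HSPA1B (26.5 ± 0.832) and HSPE1 (16.4 ± 0.702) to 16.1 ± 0.738 FPKM for DNAJB1. Only HSPE1 and DNAJB1, at the bottom of this order, had overlapping ranges in Vector-CM. In FGFBP1-CM the ranges of more neighbors overlapped, namely HSPA8 with HSP90AB1, HSPD1 with HSPA1A, HSPH1 with HSPB1 and with HSPA1B, and DNAJB1 with HSPE1, which exchanged places. The gene length that the FPKM imply ran from 1623 bases for HSPB1 to 8391 bases for HSPH1, and a long length lowers FPKM at the same count. For HSP90AA1 it was 5097 bases and for HSP90AB1 2980 bases. By CPM, which takes no account of length, the Vector-CM mean was 1413 for HSP90AA1 and 1566 for HSP90AB1. In FGFBP1-CM the CPM mean was 1889 for HSP90AA1 and 1687 for HSP90AB1. In bulk RNA, fewer cells with a transcript and less of it per cell cannot be told apart.

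**Figure D1:**
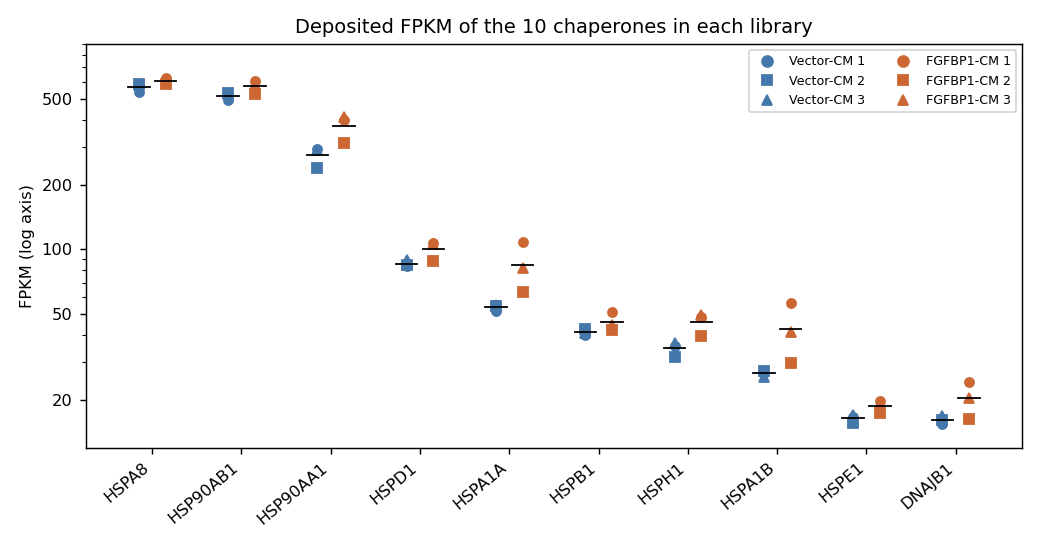
Deposited FPKM (log axis) of the 10 chaperones, ordered by the Vector-CM mean, where each symbol is 1 library and each bar the mean of 3. HSPA8 and HSP90AB1 lie above 490 FPKM in all 6 libraries, and the FGFBP1-CM symbols spread most for HSPA1A and HSPA1B.

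All 10 chaperones had a log2 fold change (FGFBP1-CM against Vector-CM) above 0, and none passed an adjusted p of 0.05 in the edgeR quasi-likelihood test with Benjamini-Hochberg adjustment over all 16707 genes. Among all tested genes, 0.12% passed that threshold and 50.7% had a log2 fold change above 0. At an unadjusted p under 0.05, 6 of the 10 were higher and 0 were lower in FGFBP1-CM, against 11.1% and 10.7% of all tested genes. The 10 were chosen with earlier results of these data known, so the shares in this paragraph are a description. The groups did not overlap, with FGFBP1-CM higher, for 4 of 10 (HSPA1A, HSPA1B, HSPH1 and HSP90AA1) and for 12.8% of tested genes. The opposite separation was found for 0 of 10 and for 13.2% of tested genes. The median log2 fold change was 0.25 over the 10 chaperones and 0.0032 over all tested genes. With DESeq2 in place of edgeR 2 of the 10 passed an adjusted p of 0.05, HSP90AA1 (0.00371) and HSPH1 (0.00642), whereas 3.5% of all tested genes did. With no filter on low counts 5 of the 10 passed, beside 3.64% of 38002 genes, a larger set that holds genes with few counts. With limma 0 of 10 passed on either log2 FPKM scale, where 0.00599% (FPKM + 1) and 0.0299% (FPKM + 0.1) of all genes did. Together the 10 genes took 0.690%, 0.700% and 0.730% of all counts in the Vector-CM libraries and 0.882%, 0.749% and 0.858% in those of FGFBP1-CM.

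HSPA1A (ENSG00000204389, chromosome 6, 31815464 to 31817946, GRCh38, plus strand, 1 exon) was at 125, 132 and 137 CPM in the Vector-CM libraries and at 253, 153 and 195 CPM in the FGFBP1-CM libraries. The groups did not overlap, FGFBP1-CM replicate 1 was highest and FGFBP1-CM replicate 2 lay nearest to the Vector-CM libraries. Its log2 fold change was 0.61 (SE 0.131, 95% interval 0.33 to 0.89), or 1.53-fold, with an adjusted p of 0.0568 in edgeR. HSPA1B (ENSG00000204388, chromosome 6, 31827735 to 31830255, plus strand, 1 exon) was at 67.4, 69.6 and 66.2 CPM in Vector-CM and at 138, 74.6 and 104 CPM in FGFBP1-CM. The FGFBP1-CM libraries had the same order as for HSPA1A, and the whole Vector-CM group spanned less than the step from FGFBP1-CM replicate 2 to replicate 3. HSPA1B had a log2 fold change of 0.64 (SE 0.156, 95% interval 0.31 to 0.98; adjusted p = 0.0680, edgeR). A share of 2.08% of tested genes had a higher log2 fold change than HSPA1B and 2.37% a higher one than HSPA1A. The genes are near-identical copies, so the split of reads between them is uncertain, and an annotated gene (AL671762.1) shares 920 bases of the HSPA1B exon. Summing both as 1 gene gave a log2 fold change of 0.62, at an adjusted p of 0.0610 in edgeR.

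HSPA8 (ENSG00000109971, chromosome 11, 123057489 to 123063230, minus strand, 9 exon blocks), which serves protein folding in unstressed cells, had counts of at least 40012 in every library. Its level was 2609, 2894 and 2897 CPM in Vector-CM and 2956, 2855 and 2949 CPM in FGFBP1-CM. The groups overlapped. With a log2 fold change of 0.06 (SE 0.0694, 95% interval -0.09 to 0.21; adjusted p = 0.647, edgeR), it had the smallest difference of the 10.

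HSPH1 (ENSG00000120694, chromosome 13, 31134974 to 31162388, minus strand, 17 exon blocks) encodes HSP110, which resets HSP70 by nucleotide exchange. It was at 301, 269 and 317 CPM in Vector-CM and at 398, 333 and 413 CPM in FGFBP1-CM. Every FGFBP1-CM library was above every Vector-CM library, with FGFBP1-CM replicate 3 highest. Its log2 fold change was 0.37 (SE 0.0868, 95% interval 0.18 to 0.55; adjusted p = 0.0658, edgeR), and 8.04% of tested genes had a higher one.

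DNAJB1 (ENSG00000132002, chromosome 19, 14514770 to 14529770, minus strand, 8 exon blocks) encodes HSP40, the J-domain protein that delivers clients to the inducible HSP70. Its values were 127, 133 and 142 CPM in Vector-CM and 193, 134 and 165 CPM in FGFBP1-CM. FGFBP1-CM replicate 2 lay within the Vector-CM range, while the other two were above it. DNAJB1 had a log2 fold change of 0.30 (SE 0.105, 95% interval 0.07 to 0.52; unadjusted p = 0.0140, adjusted p = 0.137, edgeR). Exons of TECR, on the opposite strand, share 211 bases with those of DNAJB1.

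HSP90AA1 (ENSG00000080824, chromosome 14, 102080738 to 102139699, minus strand, 11 exon blocks), the inducible HSP90, was at 1494, 1238 and 1508 CPM in Vector-CM and at 1991, 1600 and 2077 CPM in FGFBP1-CM. The groups did not overlap, and replicate 2 was the lowest library of each. The log2 fold change was 0.42 (SE 0.102, 95% interval 0.20 to 0.64; adjusted p = 0.0680, edgeR). HSP90AB1 (ENSG00000096384, chromosome 6, 44246166 to 44253888, plus strand, 14 exon blocks), the constitutive form, was at 1476, 1603 and 1617 CPM in Vector-CM and at 1769, 1577 and 1715 CPM in FGFBP1-CM. Here the groups overlapped, since FGFBP1-CM replicate 2 lay below 2 of the Vector-CM libraries. Its log2 fold change was 0.11 (SE 0.0709, 95% interval -0.04 to 0.26; adjusted p = 0.397, edgeR).

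HSPB1 (ENSG00000106211, chromosome 7, 76302544 to 76304295, plus strand, 2 exon blocks), the small heat shock protein HSP27 that holds unfolded clients without ATP, was at 65.2, 70.1 and 67.8 CPM in Vector-CM. In FGFBP1-CM it was at 81.1, 69.0 and 72.2 CPM, so that FGFBP1-CM replicate 2 lay inside the Vector-CM range. The log2 fold change was 0.13 (SE 0.0745, 95% interval -0.03 to 0.29; adjusted p = 0.321, edgeR).

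The mitochondrial chaperonin genes had small differences. HSPD1 (ENSG00000144381, chromosome 2, 197486581 to 197516737, minus strand, 14 exon blocks), which encodes HSP60, was at 640, 651 and 697 CPM in Vector-CM and at 796, 678 and 803 CPM in FGFBP1-CM. Its log2 fold change was 0.20 (SE 0.0761, 95% interval 0.03 to 0.36; unadjusted p = 0.0223, adjusted p = 0.163, edgeR). FGFBP1-CM replicate 2 again lay among the Vector-CM libraries, and the groups overlapped. HSPE1 (ENSG00000115541, chromosome 2, 197499994 to 197503457, plus strand, 2 exon blocks), which encodes the HSP10 lid, was at 30.3, 28.9 and 31.9 CPM in Vector-CM and at 35.1, 31.8 and 34.7 CPM in FGFBP1-CM. FGFBP1-CM replicate 2 lay just below Vector-CM replicate 3. For HSPE1 the log2 fold change was 0.16 (SE 0.0792, 95% interval -0.01 to 0.33; adjusted p = 0.266, edgeR). The gene pair shares 281 bases of exon on opposite strands, and whether counting used strand is not given in the sources used here.

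**Figure D2:**
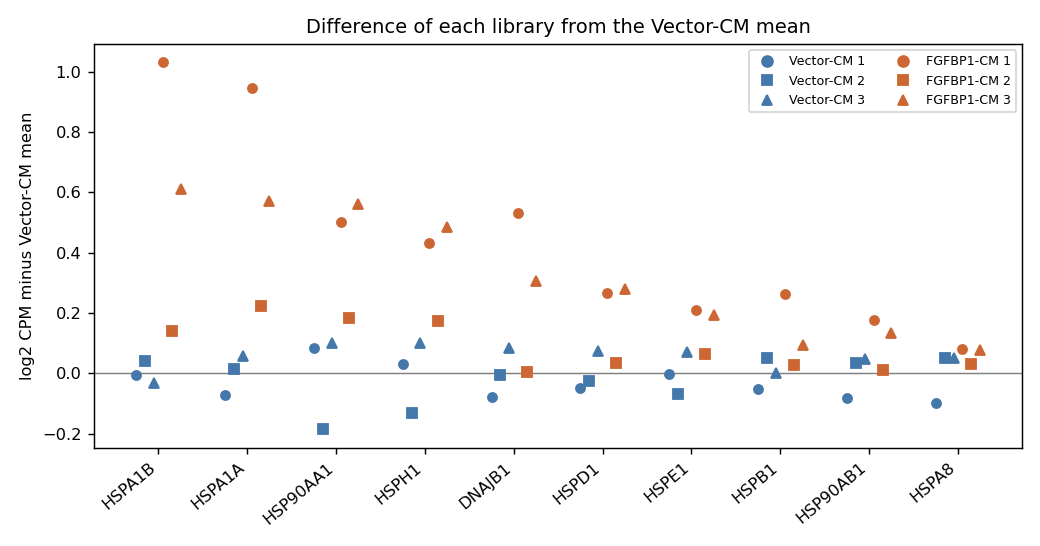
Log2 CPM of each library minus the mean of the 3 Vector-CM libraries, for the 10 chaperones ordered by log2 fold change, where colors mark the groups and shapes the replicates. FGFBP1-CM replicate 2 (squares) lies closest to 0 in FGFBP1-CM for each chaperone, and replicate 1 reaches 0.95 for HSPA1A and 1.03 for HSPA1B.

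Within FGFBP1-CM, replicate 2 was the lowest library for all 10 chaperones. The median over the 10 of the difference from the Vector-CM mean (log2 CPM) was 0.35 in FGFBP1-CM replicate 1, 0.05 in replicate 2 and 0.29 in replicate 3. Among the Vector-CM libraries it was -0.05, 0.0039 and 0.06. Thus replicate 2 of FGFBP1-CM lay within the Vector-CM spread by this median, whereas the other two lay outside it. Over all tested genes the same median was between -0.00082 and 0.0092 in every library.

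Ratios within a library do not depend on how libraries are scaled to each other. The inducible HSP70 forms (HSPA1A and HSPA1B summed) relative to HSPA8 stood at 0.146, 0.139 and 0.139 in Vector-CM and at 0.263, 0.159 and 0.201 in FGFBP1-CM, as ratios of FPKM. Their means were 0.141 ± 0.00435 and 0.207 ± 0.0524 (SD, n = 3), and the groups did not overlap. The difference of the mean log2 ratios was 0.52, with p = 0.1 in an exact two-sided permutation test, the smallest that 3 against 3 libraries allow, and 0.2 after adjustment over the 4 ratios examined. This difference was 0.34 without FGFBP1-CM replicate 1 and 0.70 without replicate 2. HSP90AA1 relative to HSP90AB1 was 0.591, 0.452 and 0.545 in Vector-CM and 0.658, 0.593 and 0.708 in FGFBP1-CM. These groups were separated only narrowly, between 0.591 and 0.593, and the log2 difference was 0.31 (exact permutation p = 0.1, adjusted p = 0.2). Without Vector-CM replicate 2 it was 0.20.

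The ratio of DNAJB1 to HSPA8 averaged 0.0283 ± 0.000933 in Vector-CM and 0.0333 ± 0.00545 in FGFBP1-CM (SD, n = 3). Its groups overlapped, and the exact permutation p was 0.3 (adjusted p = 0.4). The log2 difference of 0.22 was 0.10 without FGFBP1-CM replicate 1 and 0.34 without replicate 2. HSPD1 relative to HSPE1, the barrel to its lid, was 5.21 ± 0.165 and 5.35 ± 0.217 (SD, n = 3). This ratio also overlapped between the groups (log2 difference 0.04, exact permutation p = 0.4).

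The number of the 10 chaperones that passed changed when single FGFBP1-CM libraries were left out. Without FGFBP1-CM replicate 2, 6 passed an adjusted p of 0.05 in edgeR, namely HSPA1A, HSPA1B, HSP90AA1, HSPH1, DNAJB1 and HSPD1, beside 5.15% of all genes tested in that fit. Without FGFBP1-CM replicate 3, 2 passed (HSPA1A at 0.0366 and HSPA1B at 0.0491), beside 2.34% of all genes. Without FGFBP1-CM replicate 1 only HSPA1A did, at 0.0424, beside 0.421% of all genes. Leaving out Vector-CM replicate 1, 2 or 3 left 0 of 10, while 0.0351%, 0.0233% and 0.0232% of all genes passed. For HSPA1A the log2 fold change was 0.41 without FGFBP1-CM replicate 1 and 0.77 without replicate 2, and that of HSPA1B was 0.40 and 0.84. DNAJB1 moved from 0.16 to 0.42 between the same fits. HSPB1 was at 0.06 without FGFBP1-CM replicate 1, and without Vector-CM replicate 1 HSP90AB1 was at 0.07 and HSPA8 at 0.01. Every log2 fold change of a chaperone was above 0 in the 18 alternative fits, 1 of which held HSPA1A and HSPA1B only as a sum.

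**Figure D3:**
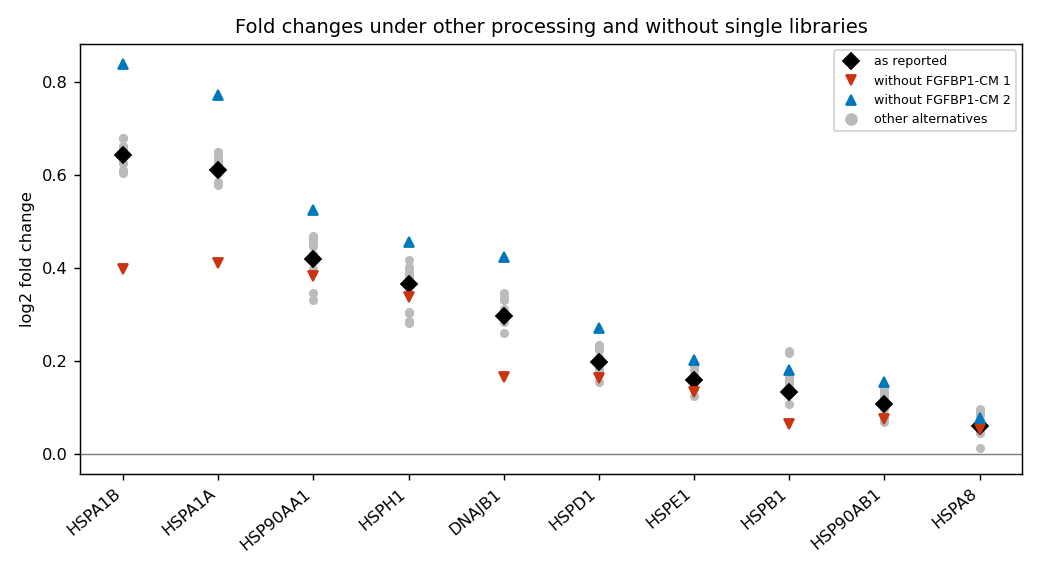
Log2 fold change (FGFBP1-CM against Vector-CM) of each chaperone as reported (diamonds), under other processing and without single libraries. Leaving out FGFBP1-CM replicate 1 lowers HSPA1B to 0.40 and leaving out replicate 2 raises it to 0.84, whereas HSPA8 stays between 0.01 and 0.10.

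The wider chaperone network was read from 9 lists of 117 further genes, of which 107 were tested, and some genes are in more than 1 list. At an adjusted p of 0.05, 0 of 107 passed in edgeR, while 23 were higher and 3 lower at an unadjusted p under 0.05, and DESeq2 passed 4 (CHORDC1, DNAJA1, HSPA1L and SUGT1), beside 3.5% of all genes. The log2 fold change was above 0 for 75 of 107, with a median of 0.06. The shares of all tested genes given above, 11.1% higher, 10.7% lower and 50.7% above 0, are the background for these counts too. The lists were also chosen with earlier results of these data known. No overlap between groups was seen for 20 genes with FGFBP1-CM higher and 5 with it lower, against 12.8% and 13.2% of all tested genes. Without FGFBP1-CM replicate 2 the number past the threshold was 9, beside 5.15% of all genes, and without replicate 3 it was 1 (HSPA6), beside 2.34%.

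Among 9 tested genes of the HSP70 family 5 were higher and 0 lower at an unadjusted p under 0.05, against 11.1% and 10.7% of all tested genes. HSPA6, an HSP70 that is nearly silent without stress, was at 1.90, 1.66 and 2.70 CPM in Vector-CM and at 14.9, 2.45 and 4.83 CPM in FGFBP1-CM. Its groups overlapped, with FGFBP1-CM replicate 1 far above all others. For HSPA6 the log2 fold change was 1.86 (SE 0.517), with an adjusted p of 0.0868 in edgeR. HSPA1L, the neighbor of HSPA1A on chromosome 6 and a close relative of it, was at 5.64, 7.02 and 5.32 CPM against 11.7, 7.66 and 9.24 CPM. These groups did not overlap, and the log2 fold change was 0.68 (SE 0.169; adjusted p = 0.0716, edgeR).

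Apart from DNAJB1, the J-domain proteins of the cytosol had log2 fold changes from -0.13 to 0.26. Apart from HSPH1, the exchange factors and associated proteins that work with HSP70 ran from -0.04 to 0.25. Of 18 J-domain proteins of the cytosol 4 were higher at an unadjusted p under 0.05 and 0 lower. The shares among all tested genes, for this and the next 2 lists, were 11.1% and 10.7%. The J-domain proteins with the lowest p were DNAJA1 (log2 fold change 0.24, adjusted p = 0.0933, edgeR) and DNAJB14 (0.24, adjusted p = 0.120). Of 9 exchange factors and associated proteins 3 were higher, including HSPA4 (0.23, adjusted p = 0.125) and HSPA4L (0.25, adjusted p = 0.151), relatives of HSPH1. Among 22 HSP90 cochaperones 6 were higher and 2 lower. Both SUGT1, which links HSP90 to its clients, at 0.30 (adjusted p = 0.0780, edgeR), and CHORDC1, a partner of HSP90, at 0.32 (adjusted p = 0.0842) were without overlap between groups.

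Of 24 other heat-inducible genes 10 were higher and 0 lower at an unadjusted p under 0.05, with a median log2 fold change of 0.15. CHORDC1 and HSPA6 had the lowest p-values among them. Among all tested genes 11.1% were higher and 10.7% lower at that p, and 50.7% had a log2 fold change above 0. These shares apply to each list of this paragraph. Apart from HSPB1, of 8 further small heat shock proteins only HSPB8 (log2 fold change 0.27, adjusted p = 0.574, edgeR) and HSPB11 (-0.04, adjusted p = 0.802) were tested. The 20 mitochondrial chaperones and proteases had 3 higher and 0 lower, with OMA1, a stress-activated protease of the inner membrane, at 0.45 (adjusted p = 0.128) and HSPA9, the matrix HSP70, at 0.21 (adjusted p = 0.146). All 14 subunits of TRiC, the cytosolic chaperonin, and of its partner prefoldin had log2 fold changes above 0, from 0.01 to 0.22, and 5 had an unadjusted p under 0.05. The largest was CCT6A (0.22, adjusted p = 0.143), and TCP1 had 0.20 (adjusted p = 0.177). The median difference of these 14 from the Vector-CM mean (log2 CPM) was 0.28, 0.01 and 0.08 in FGFBP1-CM replicates 1, 2 and 3. In Vector-CM it was -0.08, 0.02 and 0.05. For the 24 other heat-inducible genes the FGFBP1-CM medians were 0.28, 0.02 and 0.08.

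Heat shock factors bind heat shock elements, and binding to the matches shown above was not tested. HSF1, the main transcriptional activator of these genes, was at 55.1, 50.1 and 55.4 CPM in Vector-CM and at 45.7, 45.1 and 47.4 CPM in FGFBP1-CM. All FGFBP1-CM libraries were lower, and the log2 fold change was -0.22 (SE 0.0703; adjusted p = 0.114, edgeR). HSF4 was at -0.35 on the same scale (adjusted p = 0.353), and the median over 9 tested factors and regulators was -0.06. RNA levels do not report the activity of HSF1, which is set largely on the protein.

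**Figure D4:**
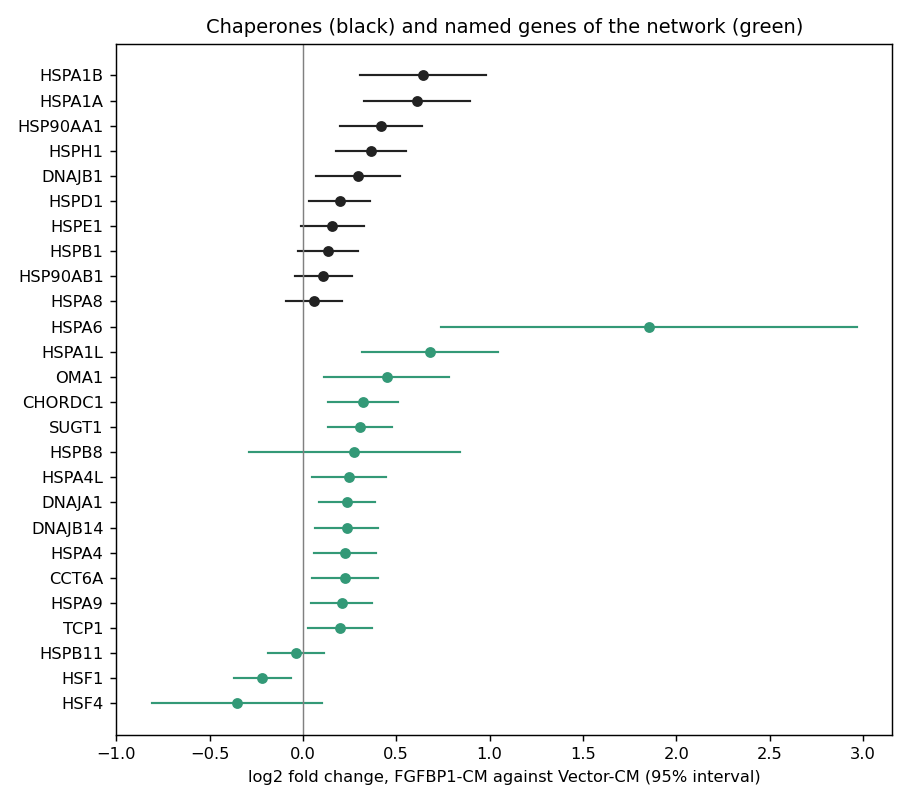
Log2 fold change (FGFBP1-CM against Vector-CM) with its 95% interval for the 10 chaperones (black) and for the genes named from the wider lists (green). The intervals of HSPA1B, HSPA1A, HSP90AA1, HSPH1, DNAJB1 and HSPD1 lie above 0, HSPA6 has the widest interval, and HSF1 lies below 0.

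**Figure D5:**
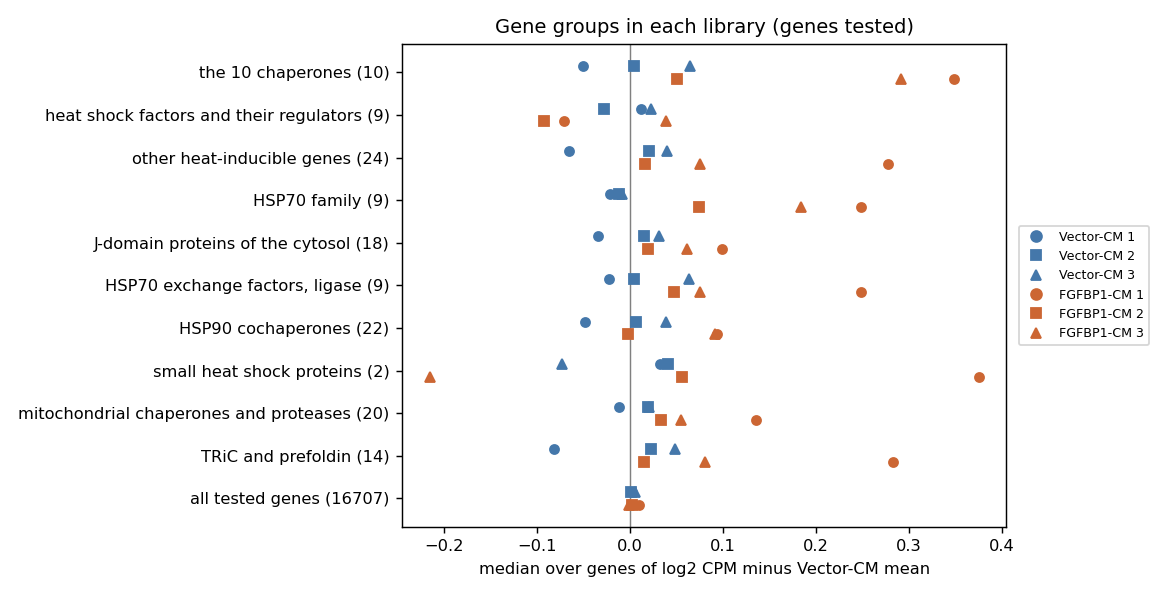
Median over the genes of each list of log2 CPM minus the Vector-CM mean, by library, where the number of tested genes is in parentheses. The 10 chaperones reach 0.35 in FGFBP1-CM replicate 1, TRiC and prefoldin 0.28, and the median over all tested genes stays within 0.01 of 0. In FGFBP1-CM replicates 2 and 3, the 10 chaperones are at 0.05 and 0.29, and TRiC and prefoldin at 0.01 and 0.08.

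Annotated pseudogenes of the 10 genes drew few counts. HSPE1 was the exception, with 409 counts on its 26 annotated pseudogenes against 3156 on the gene itself (13.0%). For HSPD1 the share was 1.74%, for HSP90AA1 0.834% and for HSP90AB1 0.415%, and the pseudogenes with most counts were HSP90AA2P (1352 counts) and HSPD1P1 (873 counts). Adding the pseudogenes to their genes left the log2 fold change of HSPE1 at 0.14 and of HSPD1 at 0.19. The readthrough gene HSPE1-MOB4 had 0 to 2 counts per library, and for MOB4, downstream of HSPE1, the log2 fold change was 0.28 (adjusted p = 0.0989, edgeR).

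Outside the 10 chaperones, the tested gene with the most similar profile over the 6 libraries was sought for each chaperone. It was the one with the smallest root mean square difference of centred log2 CPM. For HSP90AA1 this was its own pseudogene HSP90AA2P (difference 0.0432). Whether the counts of this pseudogene are reads of HSP90AA1 was not tested. TSPYL5 (0.0576) was nearest to HSPA1A, MRPS18C (0.0580) to HSPA1B, RND3 (0.0362) to HSPH1 and SLC3A2 (0.0304) to DNAJB1. The others were DHX8 (0.0156) for HSPA8, GPN3 (0.00827) for HSP90AB1, TBC1D14 (0.0138) for HSPB1, OCLN (0.0258) for HSPD1 and TAPT1 (0.0141) for HSPE1. The 10 chaperones were left out of this search, so whether one was nearest to another was not examined.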

How the data were processed

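Alignment by the authors used Hisat2 2.0.5, and reads were counted per gene with featureCounts 1.5.0-p3. They deposited raw counts, used here for the edgeR and DESeq2 tests, and FPKM, used here for levels between genes, for ratios and for limma. The submitters' processing notes name the build hg18, which was not checked against the identifiers. The annotation release and strandedness are not given in the sources used here, and the methods name poly(A) selection as well as depletion of ribosomal RNA. Coordinates are those of GENCODE 29 (GRCh38) for the same identifiers and need not be those used for counting. The table also holds 175 rows with identifiers of the authors.

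The members and gene lists were chosen with earlier results of these data known. Low counts were removed with filterByExpr and TMM factors were applied. Vector-CM (n = 3) and FGFBP1-CM (n = 3) were compared over 16707 genes with the quasi-likelihood F-test of edgeR 4.0.16 (R 4.3.3), with Benjamini-Hochberg adjustment and a threshold of 0.05. CPM are relative to the TMM-scaled library size. The standard error is the log2 fold change divided by the square root of F. Ratios were compared by exact permutation (scipy 1.17.1).

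Named genes were the 10 chaperones and, from each list, those past the threshold or else the 2 with the lowest p. The nearest gene in profile, the 2 most counted pseudogenes and the neighbors HSPA1L, MOB4 and HSPE1-MOB4 were added. The code was tested on simulated counts. Alternatives were scaling by RLE or by library size alone, no filter, a mean of at least 1 CPM, DESeq2 1.42.0, limma 3.58.1 on log2(FPKM + 1) and log2(FPKM + 0.1), the replicate block, a correction for GC content and length, summed copies, and leaving out each library. Where a library had a count of 0, up to 3 counts are allowed, or 0.158 to 0.217 CPM, for counting error only.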

Additional observations from a re-analysis of the deposited data

How the results depend on the processing

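The number of the 10 chaperones past an adjusted p of 0.05 was 0 in edgeR and depended on the processing. It was 5 with no filter on low counts, 2 with DESeq2, 1 with the GC and length correction together with the replicate block, and 6 at an unadjusted p under 0.05. Leaving out 1 library gave 0 to 6. The number stayed at 0 with RLE scaling, library size only, a mean of at least 1 CPM, the GC and length correction alone, limma on either FPKM scale and summed copies. For the 107 wider genes it was 0 in edgeR, 12 with no filter, 4 with DESeq2, 26 at an unadjusted p under 0.05, and 0 to 9 when 1 library was left out. The cause was not tested. Over all genes the number called was 20, against 1382 with no filter on low counts, where 38002 genes were tested. It was 585 with DESeq2, 90 with the replicate block and 883 without FGFBP1-CM replicate 2.

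The labels number the replicates, but deviations from the group means were not shared by number (correlations -0.094, -0.0265 and 0.111), so the numbers were not taken as pairs. With the replicate block 2 chaperones passed, HSP90AA1 (adjusted p = 0.0255, edgeR) and HSPH1 (0.0393), and 0 of the wider genes, beside 0.539% of all genes. With the GC and length correction added, the share of all genes was 0.221%.

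The median log2 fold change of the 10 chaperones lay between 0.16 (without FGFBP1-CM replicate 1) and 0.35 (without FGFBP1-CM replicate 2) in all alternatives. Of 179 values of single chaperones under alternatives, 160 kept their side of the threshold, 19 newly passed it and 0 changed sign. Among the 10, HSPE1 had the fewest counts, 400 to 666 per library.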

Other observations

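The paralogs of the endoplasmic reticulum, HSPA5 (BiP) and HSP90B1 (GRP94), were looked up after the values of the cytosolic chaperones had been seen. HSPA5 was at 1775, 2101 and 1881 CPM in Vector-CM and at 1274, 1987 and 1432 CPM in FGFBP1-CM. HSP90B1 was at 1556, 1505 and 1559 CPM in Vector-CM and at 904, 1591 and 1265 CPM in FGFBP1-CM. Both were lowest in FGFBP1-CM replicate 1, where the median over the cytosolic and mitochondrial chaperones was highest, and both overlapped between the groups. Their log2 fold changes were -0.29 (SE 0.129; adjusted p = 0.205, edgeR) and -0.30 (SE 0.142; adjusted p = 0.244, edgeR), and the difference from the cytosolic forms was not tested.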
